A study of Mus musculus with 105 samples.

Results

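The standing pool of microRNAs (miRNAs) was followed for 1 week of continuous 5-ethynyluridine (5EU) in contact-inhibited mouse embryonic fibroblasts, and the question was which miRNAs drifted while the labelling ran. 5EU is a uridine analogue that cells build into new RNA, so that new RNA can be tagged and pulled down. Input libraries hold the small RNA of the labelled cells before any pulldown. All rows of the tables whose names begin with mmu- were taken, 1013 mature miRNAs in 13 input libraries out of the 105 samples of the series. Of these miRNAs, 507 had enough counts to be tested between late and early libraries.

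MiRNAs are short RNAs that sit in Argonaute proteins and repress messenger RNAs, which they find mainly through the seed, bases 2 to 8 of the miRNA. Several are cut from 1 shared transcript and form a genomic cluster. In fibroblasts, members of the miR-17-92 cluster are known for promoting proliferation, members of the miR-15/16 group and of the miR-322 cluster for restraining the cell cycle, and the miR-29 family for repressing collagen genes. Some of these miRNAs, miR-503-5p among them, are known for fast turnover, while most miRNAs last for days.

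The cells were wild-type fibroblasts of strain C57BL/6J, held in contact inhibition for 5 days before 400 µM 5EU was added. The late libraries came from 24 h, 72 h and 1 week of 5EU in each of 2 courses (6 libraries). The early libraries came from 0, 1, 2 and 4 h in course 1 and from 1, 2 and 4 h in course 2 (7 libraries). The 2 libraries at 8 h were left out of the comparison and are given where a course is shown in full. A further culture of contact-inhibited fibroblasts without Cyrano, a long noncoding RNA that triggers decay of miR-7, was sampled at 24 h, 72 h and 1 week (late), at 2 and 4 h (early) and at 8 h, and shares no library with the wild-type courses. Dividing fibroblasts at 400 µM 5EU and embryonic stem cells at 125 µM 5EU were compared at shared times only. No culture was kept for 1 week without 5EU among the samples used here, so 5EU exposure and days in culture cannot be told apart. Each time point is 1 library per course, and time points of a stage stand in for replicates, so p-values measure the spread between these libraries.

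The 15 input libraries of the wild-type courses held 2900666 to 9117300 miRNA counts, and 630 to 732 miRNAs had at least 1 count. Levels are given as CPM, counts scaled to 1000000 miRNA counts per library with TMM factors. MiRNAs of the imprinted Dlk1-Dio3 region summed to 13730 to 16765 CPM in course 1, and to 73.7 to 131 CPM in course 2. The courses thus stood apart, and levels were compared within each course, with the course as a term of the fit. In the 2 messenger RNA libraries of these cells the fibroblast transcript Col1a1 stood at 7106 and 8950 CPM and Vim at 1683 and 2657 CPM, while Thy1 stood at 36.4 CPM in one library and 1.17 CPM in the other. Of 11 genes that mark other cells, the epithelial gene Cdh1 stood at 25.3 and 8.64 CPM, the pluripotency genes Pou5f1 at 7.25 and 5.51 CPM and Nanog at 5.49 and 3.60 CPM, and the macrophage gene Cd68 at 1.98 and 1.17 CPM, so Cdh1 lay below Thy1 in the first library and above it in the second. Ptprc, Pecam1, Cdh5 and Epcam were at 0.75 CPM or less, and Adgre1, Myod1 and Myog had no count. The libraries are bulk, so fewer cells of a type and less RNA per cell cannot be told apart.

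The mature sequences that the results turn on are shown with the seed in capitals, written 5′ to 3′ as RefSeq gives them for GRCm38.p6. The first set shares the seed AAAGUGC, and all its members were higher at 1 week.
miR-17-5p: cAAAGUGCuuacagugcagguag
miR-20a-5p: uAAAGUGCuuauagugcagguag
miR-93-5p: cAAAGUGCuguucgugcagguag
miR-106b-5p: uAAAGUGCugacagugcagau
The second set shares the seed AUUGCAC, and its members differed in whether they passed.
miR-92a-3p: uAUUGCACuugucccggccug
miR-25-3p: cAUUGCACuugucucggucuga
The third set sets miR-503-5p and miR-322-5p beside miR-15b-5p and miR-16-5p, whose first seed bases are the same.
miR-503-5p: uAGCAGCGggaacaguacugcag
miR-322-5p: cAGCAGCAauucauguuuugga
miR-15b-5p: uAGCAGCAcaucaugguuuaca
miR-16-5p: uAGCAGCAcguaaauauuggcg
The fourth set is the miR-29 family, with the seed AGCACCA in all 3 members.
miR-29a-3p: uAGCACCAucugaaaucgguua
miR-29b-3p: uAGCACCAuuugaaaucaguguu
miR-29c-3p: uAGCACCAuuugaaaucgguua

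MiR-17, miR-20a, miR-18a, miR-19a, miR-19b-1 and miR-92a-1 lie within 1 transcript at chr14:115043671-115044506 on the plus strand. MiR-322, miR-503, miR-351, miR-542 and the miR-450 hairpins lie at chrX:53047997-53054349 on the minus strand. MiR-29a and miR-29b-1 lie at chr6:31062660-31063093 on the minus strand, and miR-29b-2 and miR-29c at chr1:195037040-195037634 on the plus strand. The mature forms of miR-92a, miR-19b, miR-16 and miR-29b are each made from 2 hairpins, and their counts do not say which one was used.

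Between late and early libraries, miR-17-5p, miR-20a-5p and miR-92a-3p of the miR-17-92 cluster rose. MiR-503-5p of the X-linked cluster fell furthest among miRNAs above 100 CPM. Of the 10 most abundant miRNAs 8 did not pass, and of all 507 tested 463 did not. With edgeR's quasi-likelihood test, 44 of 507 miRNAs passed at an adjusted p of 0.05 (8.68%), of which 25 were higher late (4.93%) and 19 lower (3.75%). The median absolute log2 change was 0.47 among those passing and 0.18 among all tested, and 2 of the 44, miR-503-5p and let-7c-1-3p, exceeded 1. Of the 44, 43 had the same sign in both courses, as did 342 of all 507 tested. The 44 were called by 1 fit to both courses, which favours equal signs, so the 43 are a description. In 22 of them the late and early libraries did not overlap in either course, which 30 of all 507 showed (5.92%), 15 with late above (2.96%) and 15 with late below (2.96%). Scaling to the library total without TMM turned the split round, with 13 higher and 22 lower.

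Most calls came at the last time. Against the same early libraries, 2 of 533 miRNAs passed at 24 h (0.375%), 1 in each direction (0.188% each). At 72 h 20 passed (3.75%), 13 higher (2.44%) and 7 lower (1.31%). At 1 week 153 passed (28.7%), 71 higher (13.3%) and 82 lower (15.4%). DESeq2 called 6, 29 and 131 at these times. At 24 h the 2 were miR-7a-5p, at a log2 change of 0.77, and the strand miR-27a-5p, at -1.15. They are named for being the only ones, and neither passed at 1 week. The count at 72 h came to 5 and 13 without the 72 h library of course 1 or 2, and to 46 and 51 without the 1 week library of course 1 or 2. It was 32 without the 0 h library, 13 without the 2 h library of course 1, and 11, 11 and 12 without the 1, 2 or 4 h library of course 2. With the synthetic standards as library size it was 37, of which 35 were higher and 2 lower, on a scale whose median change over all miRNAs was 0.23. At 1 week the count stayed between 131 and 167 when any 1 early, 24 h or 72 h library was left out. At least 127 of the 153 calls were kept each time. Fewer of them were kept without the 1 week library of course 1 or 2, in fits where the lone 1 week library is assumed to vary like the others.

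The count over all late libraries moved more with single libraries. The count of 44 became 85 without the 24 h library of course 2 and 78 without that of course 1. It became 15 without the 1 week library of course 1, 17 without either 1 h library or the 2 h library of course 2, and 20 to 26 without a 4 h or 72 h library or the 2 h library of course 1. Of the 44, 12 passed with any 1 library left out. These were miR-17-5p, miR-20a-5p, miR-26a-5p, miR-30d-5p, miR-92a-3p, miR-93-5p, miR-181a-5p, miR-701-3p and miR-3102-3p among the rises, and miR-503-5p, miR-351-3p and let-7c-1-3p among the falls. Taken alone, course 1 gave 7 calls of 509 (1.38%), 5 of them higher (0.982%) and 2 lower (0.393%), and course 2 gave 0 of 437 (0%), with 86 at an unadjusted p under 0.05 and 18 by DESeq2. Without the 24 h library these counts were 30 in course 1 and 57 in course 2. Without the 4 h library course 1 gave 1 and without any other it gave 0, and course 2 gave 21 without its 1 week library.

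**Figure D1:**
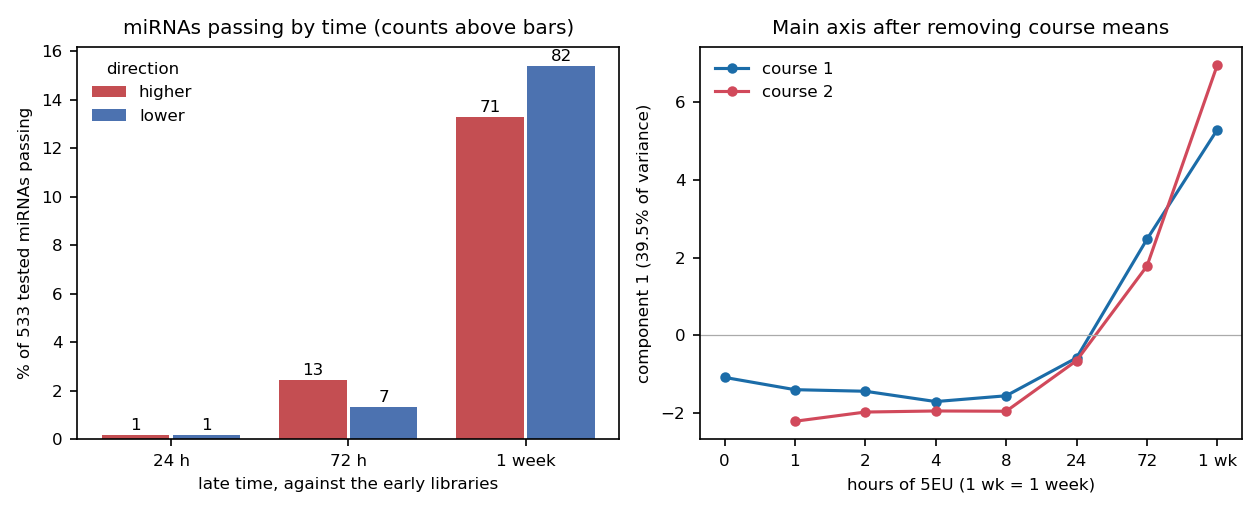
Left, the percentage of tested miRNAs passing in each direction at 24 h, 72 h and 1 week against the early libraries, with counts above the bars. Right, each library's position on component 1 of log2 CPM (39.5% of the variance over 342 miRNAs, course means removed) against hours of 5EU: the 1 week libraries stand highest, at 5.30 and 6.96, and libraries up to 8 h lie between -2.21 and -1.08.

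The order of the libraries on the main axis of variation followed the hours of 5EU from 24 h on. On component 1, course 1 stood at -0.58, 2.47 and 5.30 at 24 h, 72 h and 1 week, and course 2 at -0.65, 1.78 and 6.96. Libraries from 0 to 8 h lay between -2.21 and -1.08. The courses parted on component 2 (18.8% of the variance), where the 1 week libraries stood at 3.84 in course 1 and -3.54 in course 2, and the 0 h library of course 1 at 2.84.

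Most tested members of the miR-17-92 cluster rose at 1 week. Of the 12, 10 passed higher and none lower, where 13.3% of all tested miRNAs passed higher, with a median log2 change of 0.69 against -0.06 over all 533 miRNAs. MiR-92a-3p in course 1 stood at 1842, 1739, 1730, 1879, 1715, 2271, 2834 and 3797 CPM from 0 h to 1 week, and in course 2 at 1525, 1470, 1467, 1681, 1819, 2469 and 3451 CPM from 1 h on. It was above every early library at all 3 late times, and in course 2 at 8 h as well. Its 1 week level was 2.11 times the early mean in course 1 and 2.32 times in course 2, a log2 change of 1.14 (SE 0.08, adjusted p = 9.5e-08). MiR-17-5p, whose seed is shared with miR-20a-5p, stood at 955, 1114, 1317, 1315, 1470, 1549, 1994 and 2217 CPM in course 1, and at 1157, 1122, 1180, 1170, 1465, 1801 and 2056 CPM in course 2. Every late library lay above every early one, and the early libraries spread more widely in course 1 than in course 2. It rose by 0.87 at 1 week (SE 0.11, adjusted p = 1.8e-05), and miR-20a-5p by 0.93 (SE 0.11, adjusted p = 1.8e-05). MiR-18a-5p rose by 0.27 (adjusted p = 0.034), and miR-19b-3p by 0.48 (adjusted p = 0.0023). MiR-19a-3p, which shares the seed of miR-19b-3p, had a log2 change of 0.08 (adjusted p = 0.66). Strands of 1 transcript thus differed in whether they passed. The minor strands miR-18a-3p, miR-92a-1-5p, miR-20a-3p, miR-19b-1-5p and miR-17-3p, all of lower level than their partners, rose by 0.82, 0.87, 0.72, 0.66 and 0.58. The minor strand miR-19a-5p, at 4.10 CPM on average, had a log2 change of -0.54 (adjusted p = 0.27).

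**Figure D2:**
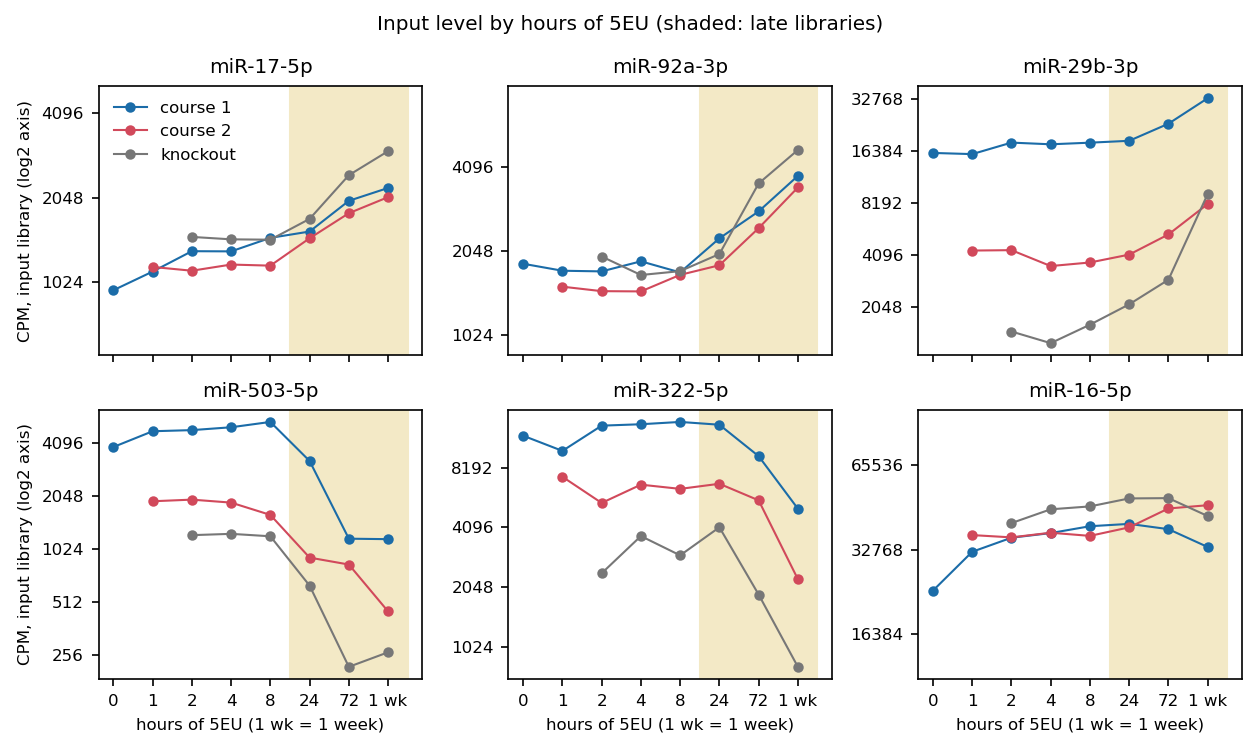
CPM of 6 miRNAs in every input library of the wild-type courses (course 1 blue, course 2 red) and of the Cyrano knockout (grey) against hours of 5EU, on a log2 axis, with the late times shaded; each point is 1 library and there are no error bars. MiR-17-5p, miR-92a-3p and miR-29b-3p climb in all 3 courses, miR-503-5p and miR-322-5p drop, and miR-16-5p, which shares the seed of miR-322-5p, moves little.

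In the related miR-106b-25 cluster, 3 of 6 members passed higher at 1 week and none lower (13.3% and 15.4% of all tested), with a median log2 change of 0.23. The difference from the miR-17-92 cluster was not tested. MiR-93-5p rose by 0.44 (adjusted p = 0.0031) and miR-106b-5p by 0.32 (adjusted p = 0.036), both with the seed of miR-17-5p. The third call, the strand miR-93-3p, rose by 0.27 and lay just inside the threshold (adjusted p = 0.049). Of 18 alternative settings, miR-93-5p passed in 15, miR-106b-5p in 13 and miR-93-3p in 6. MiR-25-3p, with the seed of miR-92a-3p, had a log2 change of 0.12 (adjusted p = 0.34), from -0.02 to 0.34 over the 18 settings. Its 1 week level was 0.984 times the early mean in course 1 and 1.22 times in course 2. Between late and early libraries miR-93-5p averaged 4607 ± 226 CPM late and 3741 ± 378 CPM early in course 1 (SD, n = 3 and 4), and 7379 ± 804 CPM late and 5559 ± 125 CPM early in course 2 (SD, n = 3 each), with no overlap in either course. The 8 miRNAs of the third paralog, the miR-106a-363 cluster, were not tested, since they summed to at most 1.52 CPM in any late library and 0.65 CPM in any early one.

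The X-linked cluster of miR-322, miR-503, miR-351, miR-542 and miR-450 fell. At 1 week 11 of its 13 members passed lower and none higher, with a median log2 change of -0.70, where 15.4% of all tested miRNAs passed lower and their median was -0.06. MiR-503-5p in course 1 stood at 3910, 4810, 4881, 5067, 5435, 3255, 1173 and 1166 CPM from 0 h to 1 week, and in course 2 at 1918, 1960, 1884, 1603, 915, 836 and 452 CPM from 1 h on. Every late library lay below every early one in both courses. Its level at 1 week was 0.25 times the early mean in course 1 and 0.235 times in course 2, a log2 change of -2.05 (SE 0.20, adjusted p = 2e-06). At earlier times its log2 change was -0.77 at 24 h (adjusted p = 0.07) and -1.54 at 72 h (adjusted p = 0.00015). MiR-322-5p, the most abundant member, stood at 11894, 9971, 13370, 13591, 13961, 13515, 9380 and 5094 CPM in course 1, and at 7379, 5445, 6733, 6412, 6804, 5613 and 2244 CPM in course 2. Its 24 h libraries were at the early level, and its change was -0.29 at 72 h (adjusted p = 0.26) and -1.40 at 1 week (SE 0.14, adjusted p = 2.4e-06). At 1 week miR-351-3p fell by 1.62, miR-450b-5p by 1.42, miR-450a-5p by 0.96, miR-542-3p by 0.93 and miR-351-5p by 0.62. The partner strand of miR-503-5p did not pass. MiR-503-3p had a log2 change of -0.25 at 1 week (adjusted p = 0.11), and miR-450a-2-3p, the other member that did not pass, -0.66 (adjusted p = 0.097). Over all late libraries, 4 of the 13 passed lower and none higher, with a median of -0.39. Of all tested miRNAs, 3.75% passed lower and 4.93% higher in that comparison. The 4 were miR-503-5p, miR-351-3p, miR-450a-1-3p and miR-542-3p.

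In the miR-15 and miR-16 family, miR-15a-5p, miR-15b-5p, miR-16-5p, miR-195a-5p and miR-497a-5p share the seed of miR-322-5p. The list of 11 members also holds their 3p strands, which do not have this seed. None of the 11 passed at 1 week, where their median log2 change was -0.02, nor over all late libraries. MiR-16-5p averaged 37583 ± 3655 CPM late and 32309 ± 6375 CPM early in course 1 (SD, n = 3 and 4), and 44179 ± 4229 CPM late and 36937 ± 705 CPM early in course 2 (SD, n = 3 each). The stages overlapped in course 1 and not in course 2, and its change of 0.24 did not pass (adjusted p = 0.11). MiR-15a-5p, miR-15b-5p, miR-195a-5p and miR-497a-5p had log2 changes of 0.12, -0.23, 0.15 and -0.02 at 1 week (adjusted p between 0.16 and 0.92). The difference between miR-322-5p and these miRNAs was itself not tested.

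**Figure D3:**
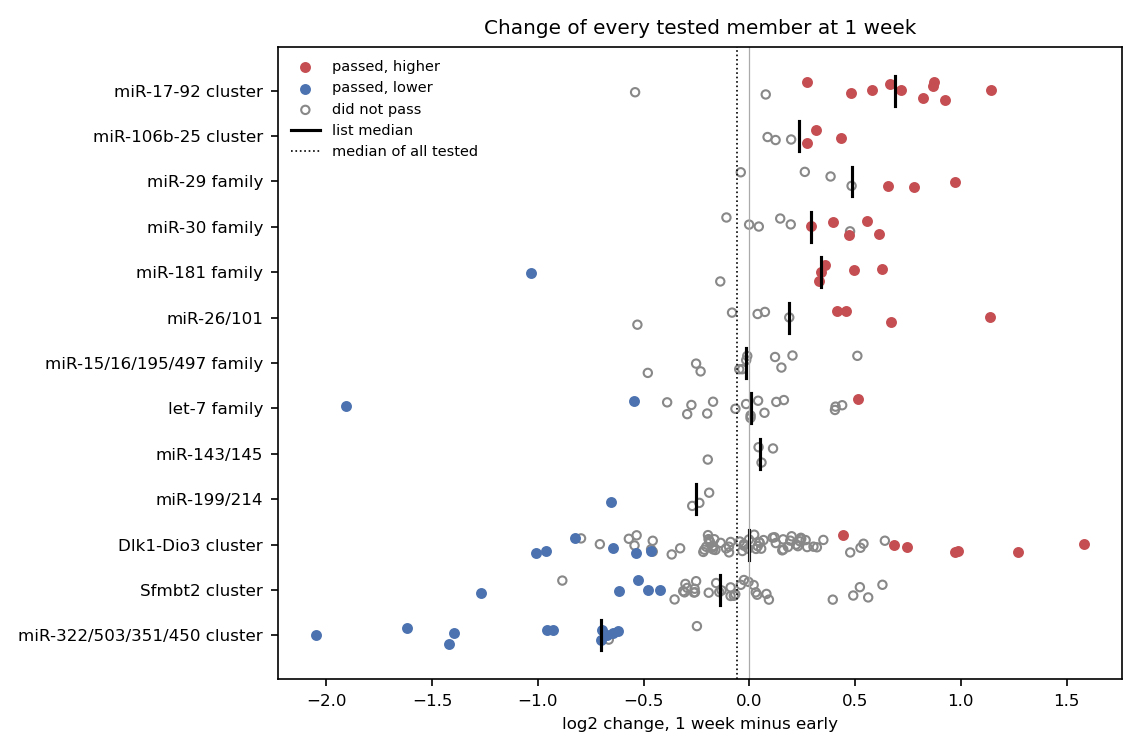
Log2 change at 1 week over the early libraries (x axis) for every tested member of 13 lists of clusters and families (rows); filled points passed, open points did not, black bars are list medians and the dotted line is the median of all tested miRNAs. The lists of the miR-17-92 cluster and of the X-linked cluster lie furthest apart, with medians of 0.69 and -0.70.

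In the miR-29 family, 3 of 7 members rose at 1 week and none fell (13.3% and 15.4% of all tested), with a median log2 change of 0.48. MiR-29b-3p in course 1 stood at 15875, 15628, 18218, 17812, 18200, 18661, 23431 and 32904 CPM from 0 h to 1 week, and in course 2 at 4322, 4345, 3515, 3686, 4094, 5357 and 8032 CPM from 1 h on. The 24 h library of course 2 lay among the early ones, and the 1 week level was 1.95 and 1.98 times the early mean in the 2 courses. The log2 change at 1 week was 0.97 for miR-29b-3p (adjusted p = 1.9e-06), 0.78 for miR-29a-3p (adjusted p = 2.6e-06) and 0.66 for the strand miR-29a-5p (adjusted p = 0.00031). MiR-29c-3p, with the same seed, had a change of 0.26 (adjusted p = 0.14). Over all late libraries miR-29b-3p was the 1 member that passed, at 0.55 (adjusted p = 0.028), and it did not pass in either course alone (0.57 in each, adjusted p = 0.13 in course 1 and 0.23 in course 2).

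Counts for the next families stand beside the same shares over all tested miRNAs, 13.3% higher and 15.4% lower. Of the 11 tested members of the miR-30 family, which is known for repressing genes of autophagy and of fibrosis, 5 rose at 1 week and none fell, led by miR-30b-5p at 0.61 and miR-30d-5p at 0.55. Of 7 tested members of the miR-181 family, 5 rose and 1 fell. The mature strands miR-181a-5p, miR-181b-5p, miR-181c-5p and miR-181d-5p, which share a seed, rose by 0.34, 0.33, 0.36 and 0.49, the low strand miR-181c-3p rose by 0.63 and the low strand miR-181b-1-3p fell by 1.03. Of 9 members of the miR-26 and miR-101 list, 4 rose and none fell. MiR-26a-5p stood at 43306 ± 2529 CPM late and 33181 ± 3439 CPM early in course 1 (SD, n = 3 and 4), and at 46295 ± 4264 CPM late and 39071 ± 1642 CPM early in course 2 (SD, n = 3 each). It was the most abundant miRNA to pass over all late libraries, at 0.32 (SE 0.07, adjusted p = 0.015). MiR-26b-5p, with the same seed, had a change of 0.07 at 1 week (adjusted p = 0.68). Both strands of miR-21a, a miRNA known for its abundance in fibroblasts, rose at 1 week, miR-21a-5p by 0.40 (adjusted p = 0.0038). In course 1 its 1 week level was 1.13 times the early mean and in course 2 it was 1.55 times. Over all late libraries its change was 0.09 (adjusted p = 0.63).

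The let-7 family is known as a marker of differentiated cells. Of its 19 tested members, 1 rose and 2 fell at 1 week, with a median log2 change of 0.01, and both shares lay under the 13.3% and 15.4% of all tested miRNAs. These were let-7d-3p at 0.51, let-7e-5p at -0.54 and let-7c-1-3p at -1.91. The last rests on few reads, 40, 25, 24, 18, 7, 6, 1 and 6 counts from 0 h to 1 week in course 1 and 27, 23, 17, 10, 3, 18 and 10 counts from 1 h on in course 2. In the miR-199 and miR-214 list, 1 of 4 members passed at 1 week. This was miR-214-3p, which fell by 0.66 (SE 0.11, adjusted p = 0.00036) to 0.669 and 0.602 times the early mean. None of the 4 tested members of the miR-143 and miR-145 list passed. Among the 10 most abundant miRNAs of the early libraries, miR-26a-5p and miR-27a-3p passed over all late libraries, where 8.68% of all tested passed. The other 8, miR-21a-5p, miR-125b-5p, miR-143-3p, miR-24-3p, miR-16-5p, miR-199ab-3p, miR-145a-5p and let-7i-5p, had log2 changes between -0.04 and 0.24 in that comparison. At 1 week miR-21a-5p passed too, beside miR-26a-5p and miR-27a-3p, where 28.7% of all tested miRNAs passed.

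Further miRNAs above 100 CPM that passed over all late libraries were miR-345-5p, miR-192-5p, miR-3102-3p, miR-101a-3p.1 and miR-30c-5p, which rose by 0.32 to 0.46, and miR-183-5p, miR-33-5p, miR-676-3p and miR-100-5p, which fell by 0.26 to 0.44. The names miR-183-5p and miR-183-5p.2 are 2 rows of 1 strand, whose reads the counting could split. At the threshold, miR-192-5p, miR-542-3p and miR-376b-3p passed at an adjusted p of 0.048, and miR-206-3p, miR-96-5p and miR-486ab-5p missed it at 0.052, 0.052 and 0.053. MiR-376b-3p belongs to the Dlk1-Dio3 region and stood, in course 1, at 423 ± 67.0 CPM late and 279 ± 33.4 CPM early (SD, n = 3 and 4). In course 2 it stood at 2.4 ± 0.94 CPM late and 2.82 ± 0.28 CPM early (SD, n = 3 each). Of 76 tested miRNAs of that region, 7 rose and 6 fell at 1 week, with a median of 0.00. Both shares lay under those of all tested miRNAs (13.3% and 15.4%). The courses moved apart there. The region's sum was 15116 to 16765 CPM late and 13730 to 15023 CPM early in course 1. In course 2 it was 73.7 to 103 CPM late and 123 to 131 CPM early. Its median log2 change over all late libraries was 0.05 in course 1 and -0.64 in course 2. This difference was not tested for the region as a whole. Of 36 in the Sfmbt2 repeat cluster, 5 fell and none rose, and the share that fell was close to the 15.4% of all tested miRNAs. Chosen after their values were seen, miR-155-5p and miR-486ab-5p rose by 0.93 each at 1 week and miR-335-3p fell by 0.75. MiR-155-5p, known for its role in activated immune cells, stood at 172 CPM at 1 week against 107 ± 15.9 CPM early in course 1 (SD, n = 4), and at 185 CPM against 82.0 ± 3.50 CPM in course 2 (SD, n = 3).

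Lists that mark other cells gave 4 calls at 1 week, together a smaller share of their tested members than the 28.7% of all tested miRNAs. The 24 stem-cell miRNAs summed to at most 1.52 CPM in any late library and 2.69 CPM in any early one, and 10 of them had no count. Muscle miRNAs summed to 42.2 to 77.1 CPM late and 64.4 to 92.0 CPM early in course 1, and to 87.7 to 117 CPM late and 133 to 160 CPM early in course 2. Of 4 tested, miR-206-3p and miR-1a-3p fell at 1 week, both by 0.93, and 1 list member had no count. That share was above the 15.4% of all tested miRNAs that passed lower, and the muscle list's median log2 change was -0.69. Blood miRNAs summed to 135 to 271 CPM late and 115 to 134 CPM early in course 1, and to 146 to 191 CPM late and 138 to 151.8 CPM early in course 2, with miR-486ab-5p the 1 of 6 tested that passed. Endothelial, epithelial and liver miRNAs gave no call at 1 week among 3, 2 and 1 tested, and of 5 neural ones miR-9-3p passed higher. The part of other cells in the changes was not tested.

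Neighbouring hairpins were compared next. Among 16 groups of at least 4 tested mature miRNAs whose hairpins lie within 10000 bases on 1 strand, the miR-17-92 group had the highest median log2 change at 1 week and the miR-322 to miR-450b group the lowest. Next lowest came miR-224 and miR-452 on the same chromosome, at a median of -0.64 with 2 of 4 passing lower. The group of miR-182, miR-96 and miR-183 on chromosome 6 followed, at -0.40 with 3 of 5 passing lower. Of all tested miRNAs, 15.4% passed lower at 1 week. The groups were ranked by these same values, so their counts are a description. Across 80 hairpins with both arms at 20 CPM or more, the changes of the 5p and the 3p arm at 1 week had a Pearson r of 0.50 and 49 had the same sign. Arms of 1 hairpin share a precursor and a library, so this is a description.

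5EU enters at uridines, and uridine content was set against the drift. Of the 507 tested miRNAs, 407 matched 1 RefSeq mature sequence. Across them the number of uridines and the late minus early log2 change had a Pearson r of 0.05 (Spearman 0.02), and GC content -0.05. Rises, falls and the miRNAs that did not pass all had a median of 6 uridines. The speed of labelling was taken from the pulled-down EU libraries of the same cells as the log2 ratio of mean CPM at 1, 2 and 4 h to mean CPM at 24 h, 72 h and 1 week, with 1 CPM added to both. Among 220 miRNAs of at least 100 CPM its Pearson r with the change was -0.36 for the ratio of course 1 and -0.43 for that of course 2. Over all 507 miRNAs the medians of the ratio were -0.17 and -0.36 among the rises, 0.93 and 1.58 among the falls, and 0.31 and 0.38 among the rest, for courses 1 and 2. The late EU libraries come from the same cells as the late inputs, so a level that falls raises this ratio by itself, and the measures are not independent. Set against the change in the other course, r was -0.23 for the ratio of course 1 and -0.37 for that of course 2. The changes of the 2 courses themselves had an r of 0.47 over these miRNAs, so crossing them does not make the measures independent.

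The courses were also set against each other. A test of the difference between the courses called 0 of 528 miRNAs (0%), with 36 at an unadjusted p under 0.05 and 1 by DESeq2. The lowest p belonged to miR-127-3p of the Dlk1-Dio3 region, with a difference of -0.96 (adjusted p = 0.18). Over all 507 miRNAs the log2 changes of the 2 courses had a Pearson r of 0.35 and 342 the same sign, and at 100 CPM or more r was 0.47 over 220. The median of the miR-17-92 list over all late libraries was 0.39 in course 2 and 0.26 in course 1, and that of the X-linked cluster -0.45 in course 2 and -0.37 in course 1.

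**Figure D4:**
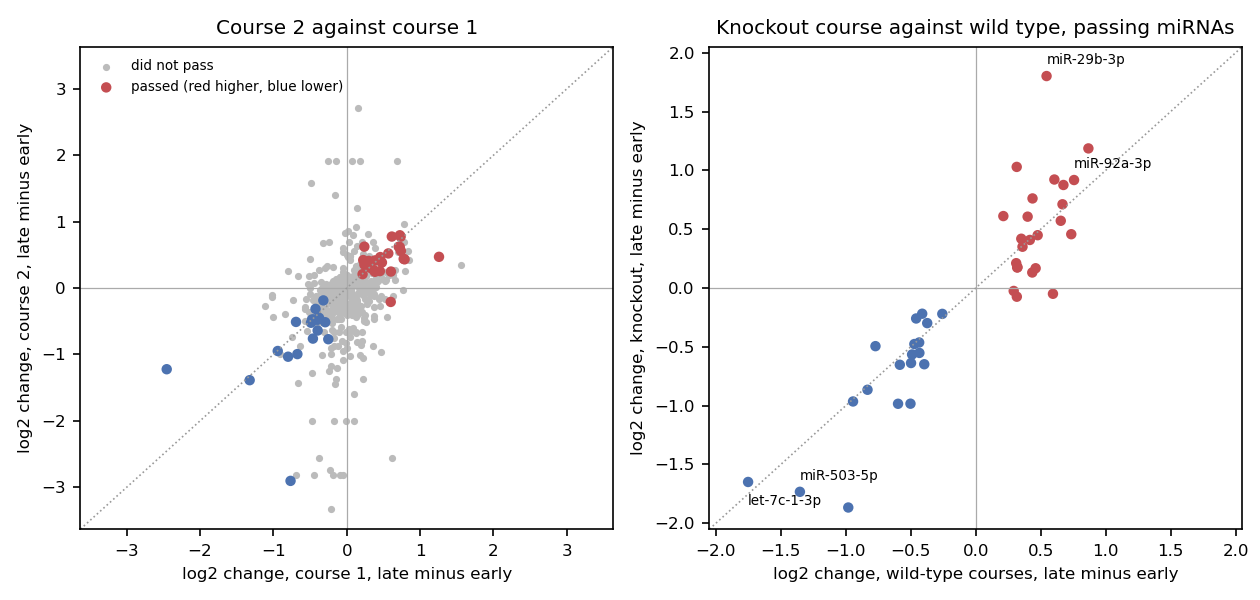
Left, log2 change between late and early libraries in course 2 against course 1 for all 507 tested miRNAs, with those passing coloured by direction. Right, the change in the Cyrano knockout course against that in both wild-type courses for the 43 passing miRNAs that could be compared; 40 lie in the quadrants of equal sign. Dotted lines mark equality.

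In the course without Cyrano, whose libraries were not used to make the calls, miR-17-5p, miR-20a-5p and miR-92a-3p had log2 changes of 0.71, 0.57 and 0.92 and miR-503-5p of -1.73, none of which passed there. Cyrano itself is not a row of the small-RNA tables, and miR-7a-5p, which it degrades, stood at 2002 to 3105 CPM over late and early knockout libraries against 57.5 to 151 CPM in the wild type (each line scaled on its own). Of the 43 wild-type calls measured there, 40 had the same sign in the knockout, with a Pearson r of 0.90 and a Spearman rho of 0.89 across these miRNAs, and over 466 tested miRNAs r was 0.60 with 334 of the same sign. MiR-503-5p stood at 1229, 1250, 1211, 634, 218 and 264 CPM at 2, 4, 8, 24, 72 h and 1 week. MiR-92a-3p stood at 1955, 1679, 1733, 1995, 3567 and 4699 CPM, and miR-29b-3p at 1469, 1258, 1609, 2111, 2929 and 9173 CPM. MiR-503-5p was lowest at 72 h, and the other 2 were highest at 1 week. On its own this course of 2 early and 3 late libraries called 1 of 516 miRNAs (0.194%), miR-365-1-5p, and DESeq2 called 7. It called 28 without the 24 h library, 3 without the 1 week library and 0 without any other. The difference between wild type and knockout in late minus early called 0 of 565 (0%), with 26 at an unadjusted p under 0.05 and 0 by DESeq2.

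Against dividing fibroblasts at shared times up to 72 h, the drift of contact-inhibited cells differed for 4 of 564 miRNAs (0.709%). Of these, 3 were more positive (0.532%) and 1 more negative (0.177%). Without course 1 the count was 1, a miRNA that was none of the 4. Without course 2 it was 13, with 3 of the 4 among them. MiR-20a-5p changed by 0.54 in contact-inhibited and 0.08 in dividing cells, a difference of 0.46 (SE 0.11, adjusted p = 0.041). MiR-17-5p changed by 0.60 and 0.21, and the difference of 0.39 did not pass (adjusted p = 0.093). MiR-503-5p changed by -1.05 in contact-inhibited and -0.08 in dividing cells, a difference of -0.97 that did not pass (SE 0.28, adjusted p = 0.093). MiR-93-5p changed by 0.36 and 0.34. Against embryonic stem cells at times up to 24 h, 12 of 680 differed (1.76%), 3 more positive (0.441%) and 9 more negative (1.32%), and 7 without course 1. Here miR-503-5p was among them, with -0.78 in contact-inhibited and 0.08 in stem cells (difference -0.87, adjusted p = 0.0036).

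The total of the pool was read against synthetic RNA standards, added in proportion to total RNA per the labels. The log2 ratio of miRNA counts to standard counts differed by 0.11 between late and early libraries, with an exact permutation p of 0.27 (two-sided, 700 permutations within courses). In course 1 the standards had 80 to 320 counts per library, so that this scale is coarse there, and in course 2 they had 17632 to 24584. With the standards as library size 9 miRNAs passed over all late libraries, 6 higher and 3 lower, and 76 at 1 week, 28 higher and 48 lower.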

How the data were processed

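All values are raw read counts per mature miRNA, synthetic standard or size marker, as the authors deposited them, with no normalization. Per the labels, inputs were 2 to 5 µg of total RNA with standards added and adapters carrying random bases. Per the submitters' processing notes, cutadapt, STAR 2.4 and HTSeq 0.9.1 were used with mm10/GRCm38 for the wild-type fibroblasts, and cutadapt alone is named for the knockout. Whether random bases served to remove duplicate reads is not given in the sources used here, and counts were taken as reads.

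Counts were tested with edgeR 4.0.16 in R 4.3.3 (TMM scaling, its expression filter, robust quasi-likelihood fit, Benjamini-Hochberg adjustment over all miRNAs tested, threshold 0.05, two-sided), with course as a block. DESeq2 1.42.0 was an alternative. Late times also entered as 3 levels of 1 fit. CPM is the count per 1000000 of the TMM-scaled miRNA total. Within a course, deviations from stage means correlated between times at 0.97 to 0.99 over 15 pairs, so the course number pairs libraries, and library pairs differed by at least 13.5 times the sampling noise (chi-square per degree of freedom). In simulated data over 507 miRNAs for this comparison, 46% of changes of 1.25-fold and 90% of 1.5-fold were recovered, with 3 false calls among 307 unchanged. The simulated libraries were drawn independently, with the same fold at every late time. These rates therefore do not cover a drift that grows with time or trends within a stage.

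Named miRNAs were those passing in the same direction in both courses at a mean of 100 CPM or more (up to 12 per direction), the 10 most abundant, up to 4 passing members of each list, the 5 lowest p-values of each difference, and 3 on either side of the threshold. Other miRNAs named at 24 h and 1 week, and by shared seed, were chosen after their values were seen. The members, lists and rules were chosen with earlier results of these data known. Sequences came from RefSeq tables for GRCm38.p6, and 407 of 507 tested names matched exactly. Alternatives covered scaling, filters, the block, the times counted as late or early, and each library left out.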

Additional observations from a re-analysis of the deposited data

Results flagged for a closer look

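In course 1 the 0 h library stood apart from the other 3 early libraries for 2 named miRNAs. MiR-183-5p was at 515 CPM at 0 h and at 659 to 679 CPM at 1, 2 and 4 h, and miR-542-3p was at 570 CPM at 0 h and at 687 to 707 CPM at the others. Of 29 groups of 4 libraries examined, 2 showed such a gap, and chance gives about 1 in 20.

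The late minus early change differed between contact-inhibited and dividing fibroblasts for 4 miRNAs, with a test of the difference itself (edgeR). None of the 4 was called without course 1. MiR-449c-5p changed by -0.17 in contact-inhibited and 0.95 in dividing cells, a difference of -1.12 (adjusted p = 0.036). Its level was low, at 9.55 CPM on average in the contact-inhibited inputs. The differences were 0.65 for miR-376b-3p, 0.50 for miR-320-3p and 0.46 for miR-20a-5p. Against embryonic stem cells 12 miRNAs differed, among them miR-34c-5p at -1.85, miR-34a-5p at -1.05, miR-34b-5p at -2.11, miR-34c-3p at -1.64 and miR-34b-3p at -1.49. MiR-34c-5p changed by -0.09 in contact-inhibited fibroblasts and 1.76 in stem cells, and miR-34a-5p by 0.05 and 1.09, in the same order. The part of the 5EU dose, which differed between the lines, was not tested.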

How the results depend on the processing

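The count of 44 over all late libraries stayed within 1.5 times under DESeq2 (57), RLE scaling (45), library totals (35), no filter (54), counts summed per course and stage (58) and no robust fit (44). It was 9 with the standards as library size, 27 at 100 CPM or more, 79 with 8 h counted as early and 9 with 8 h counted as late, 137 for a slope on log2 hours, 103 with late as 72 h and 1 week, 7 in course 1 alone and 0 in course 2 alone (86 at an unadjusted p under 0.05 by edgeR). Of the settings added after seeing the data, late as 24 h alone gave 7 and as 24 h and 72 h gave 20. Without the replicate block the count was 2, and at 1 week 10. The course number pairs libraries, so the blocked values are those reported.

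Leaving out 1 library gave 15 to 85 over all late libraries, 0 to 30 in course 1, 0 to 57 in course 2 and 0 to 28 in the knockout. With both libraries of the tested time kept, it gave 11 to 51 at 72 h and 131 to 167 at 1 week. The 24 h count was 6 under DESeq2, 4 under RLE scaling and 4 with no filter. With the standards the 72 h count was 37, the 1 week count 76 and the knockout count 11. DESeq2 gave 13 in course 1, 18 in course 2, 1 for the difference between courses, 7 in the knockout, 18 against dividing fibroblasts and 19 against stem cells. With no filter, course 1 gave 18, course 2 gave 1, the knockout 2 and the dividing fibroblasts 26, where RLE scaling gave 2. Without course 1 the difference from dividing fibroblasts called 1, which was not called with both courses, and that from stem cells 7. Without course 2 the count against dividing fibroblasts was 13. Among named miRNAs the 1 reversal was miR-376b-3p, at -0.17 without course 1. The causes were not tested.

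Each time point is 1 library per course, and no long culture without 5EU was used. The standards had few counts in course 1, and miRNAs of the Dlk1-Dio3 region few in course 2, which limits both there.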
